A study of Mus musculus with 12 samples.

Results

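Integrins are the receptors through which a T cell holds on to other cells and to the matrix, and 8 of their subunit genes were examined here with the genes of the hyaluronan receptor CD44 and the selectin ligand PSGL-1. The 10 genes, *Itgal*, *Itgb2*, *Itga4*, *Itgb1*, *Itgb7*, *Itgav*, *Itgb3*, *Itga6*, *Cd44*, and *Selplg*, were chosen by name from 26608 genes listed. No rule on their values was used, but earlier results of these data were known when they were chosen. RNA sequencing had been performed on CD4+ YFP(FOXP3)- cells sorted from spleen pooled with cervical and inguinal lymph nodes of mice 14 weeks old, with 4 libraries in each of 3 groups. All groups carried *Foxp3-Cre*, a Cre recombinase driven by the promoter of *Foxp3*, which is active in T regulatory (Treg) cells. In WT mice *Tet2* and *Tet3*, which encode enzymes that oxidize methylated DNA, were intact. In DKO-moderate and DKO-severe mice, which had the same genotype (*Foxp3Cre Tet2/3* flox/flox), both genes were floxed and so were deleted only in cells that had expressed the Cre. The study separated these mice by the total number of cells in these organs, which is itself an outcome of the disease, so a difference between DKO-moderate and DKO-severe is a difference between degrees of lymphoid expansion. The sorted YFP(FOXP3)- cells could hold cells that never expressed *Foxp3* together with cells that had lost it (ex-Treg cells), and the 2 kinds cannot be told apart in these libraries.

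An integrin is a pair of an α and a β subunit that reaches the cell surface together, so the supply of a partner limits what a rise of the other can give. LFA-1 (αL with β2, from *Itgal* and *Itgb2*) binds ICAMs on antigen-presenting cells and vessels. The α4 subunit pairs with β1 to bind VCAM-1 and fibronectin, or with β7 to bind MAdCAM-1 in the gut. Integrins that contain αv bind osteopontin, vitronectin, and latent TGF-β, α6β1 binds laminin, CD44 marks activated and memory T cells, and PSGL-1 is the ligand of P-selectin, which acts as a selectin ligand only after its sugars have been modified. Integrins also need to be switched on from inside the cell, by talin, kindlin, and the small GTPase Rap1.

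Reads on genes ranged from 29254260 to 42133536 per library. Levels below are TMM-scaled CPM, the reads of a gene per library total scaled to a common size, and a change is the log2 fold change with its standard error (SE) from edgeR's quasi-likelihood test, with p-values adjusted by Benjamini-Hochberg over the 16035 genes tested. All 10 genes passed the filter on low counts. With 1 library per mouse and 4 per group, these p-values measure the spread between the libraries, and in bulk samples fewer cells of a type and less RNA per cell cannot be told apart. The deletion could not be checked from whole-gene counts of cells of which an unknown share ever expressed the Cre. *Tet2* was at 43.3 to 62.2 CPM in WT, 34.8 to 57.8 CPM in DKO-moderate, and 56.7 to 65.8 CPM in DKO-severe, and *Tet3* at 167 to 210.4, 90.3 to 185, and 87.8 to 102 CPM. The 10 T cell markers were abundant in every library, with a summed level of 4757 to 6576 CPM. Against WT, 2 of these T cell markers rose and 5 fell in DKO-severe. Markers of other cells varied between groups and libraries. All 13 neutrophil markers rose against WT in DKO-severe, and their summed level was 9.83 to 15.1 CPM in WT, 13.4 to 37.8 CPM in DKO-moderate, and 28.3 to 2317 CPM in DKO-severe, where DKO-severe 1 (2317 CPM) and DKO-severe 2 (868 CPM) stood apart. *Elane* had no reads in WT. The 9 B cell markers summed to 6.81 to 228 CPM, 21.5 to 47.5 CPM, and 70.4 to 397 CPM, and the 9 monocyte and macrophage markers to 5.66 to 201 CPM, 15.7 to 61.2 CPM, and 103 to 389.5 CPM, the highest WT value in both lists being that of WT 3. In DKO-severe, 1 of the 9 B cell markers and 3 of the 9 monocyte and macrophage markers rose against WT, and none fell. The 8 markers of naive T cells summed to 4484 to 5169.8 CPM in WT, 2485 to 3960.2 CPM in DKO-moderate, and 1664 to 2239.7 CPM in DKO-severe, and 7 of them fell in DKO-severe against WT. The part of these cells in the results below was not tested.

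On GRCm38, the genes of 3 α subunits and of CD44 lay on chromosome 2, at 71745616 to 71858416 for *Itga6*, 79255426 to 79333123 for *Itga4*, 83724397 to 83806916 for *Itgav*, and 102811141 to 102901665 for *Cd44*. *Itgal* lay on chromosome 7, *Itgb2* on 10, *Itgb1* on 8, *Itgb7* on 15, *Itgb3* on 11, and *Selplg* on 5. Promoter windows of the α4 subunit and its alternative partners were chosen for display, since *Itga4* and *Itgb1* rose in DKO-severe and *Itgb7* showed no called change. The 250 bases before the transcription start are shown (RefSeq, GRCm38.p6, written 5′ to 3′ on the strand of the gene). The windows are chr2:79255176-79255425 on the plus strand for *Itga4*, chr8:128685404-128685653 on the plus strand for *Itgb1*, and chr15:102231936-102232185 on the minus strand for *Itgb7*. Capitals mark matches to any of 6 motifs searched on both strands.
Itga4: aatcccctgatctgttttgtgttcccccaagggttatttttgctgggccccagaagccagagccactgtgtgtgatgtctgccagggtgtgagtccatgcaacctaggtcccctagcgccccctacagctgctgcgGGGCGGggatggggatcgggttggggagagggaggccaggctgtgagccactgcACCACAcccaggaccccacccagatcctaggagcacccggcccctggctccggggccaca
Itgb1: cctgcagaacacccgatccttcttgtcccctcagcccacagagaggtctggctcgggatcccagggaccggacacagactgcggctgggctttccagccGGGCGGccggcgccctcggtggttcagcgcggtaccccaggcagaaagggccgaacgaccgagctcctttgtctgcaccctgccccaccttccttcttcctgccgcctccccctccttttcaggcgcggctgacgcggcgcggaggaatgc
Itgb7: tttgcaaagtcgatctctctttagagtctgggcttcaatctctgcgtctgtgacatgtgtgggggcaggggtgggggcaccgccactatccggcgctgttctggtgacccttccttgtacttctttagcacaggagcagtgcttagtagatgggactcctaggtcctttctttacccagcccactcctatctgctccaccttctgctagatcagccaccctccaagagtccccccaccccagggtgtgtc
The motifs searched were the GC box (GGGCGG), an ETS site (CCGGAA), an AP-1 site (TGANTCA), a RUNX site (TGTGGT), a FOXO site (TGTTTAC), and the TATA box (TATAAA), none of which overlapped in these windows. *Itga4* held a GC box 114 bases and a RUNX match (ACCACA, on the minus strand) 60 bases before the start, *Itgb1* held a GC box 151 bases before it, and *Itgb7* held none of the 6. Among 32851 promoter windows of the same length, the GC box occurred in 32.7%, the RUNX letters in 14%, the TATA box in 12.4%, the ETS letters in 12%, the AP-1 letters in 6.75%, and the FOXO letters in 3.17%. GC content was 64% for *Itga4*, 68% for *Itgb1*, and 56% for *Itgb7*, with a median of 52.4% over all windows. Entries were found for 5 of the 10 genes, the others being *Itgav* and *Cd44*, whose windows held none of the 6 motifs.

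Between DKO-severe and WT, 8 of the 10 genes passed the threshold of 0.05 in a comparison in which 52.6% of all genes tested did so. *Itgal*, *Itga4*, *Itgb1*, *Itgav*, and *Cd44* rose (26.6% of all genes tested rose) and *Itgb3*, *Itga6*, and *Selplg* fell (25.9% of all genes tested fell). The libraries of the groups did not overlap for these 8 genes, as for 51.9% of all genes tested. The median log2 fold change was 0.41 over the members and -0.01 over all genes tested. With terms for the neutrophil and B cell markers in the fit, 3000 of 16035 genes were called in place of 8428, and *Itgal*, *Itgav*, *Cd44*, and *Selplg* remained among them. The log2 fold change was then 1.27 for *Itga4* (adjusted p = 0.115), 0.81 for *Itgb1* (adjusted p = 0.229), and -1.84 for *Itga6* (adjusted p = 0.0581), against 0.84, 0.87, and -2.25 without the terms, and -0.40 for *Itgb3* (adjusted p = 0.237), against -1.61. The neutrophil markers are themselves tied to group, with summed levels of at least 28.3 CPM in DKO-severe and at most 15.1 CPM in WT. Here and below, this fit therefore cannot separate other cells from the group, whether a call was kept or lost. Between DKO-moderate and WT, *Itgal*, *Itgav*, and *Cd44* rose and *Itgb3* and *Itga6* fell, which makes 5 of 10 members against 17.1% of all genes tested (12.3% higher and 4.74% lower). The libraries did not overlap for 5 members, which were *Itgal*, *Itgb3*, *Itga6*, *Cd44*, and *Selplg*, as for 24.8% of all genes tested. With a term for the platelet markers, which were near 0 in every library, 1917 of 16035 genes were called in place of 2734. The calls of *Itgb3* (log2 fold change -0.94, adjusted p = 0.0788), *Itga6* (-0.98, adjusted p = 0.0691), and *Cd44* (0.61, adjusted p = 0.0518) were lost there, beside -1.02, -1.15, and 0.64 without the term. Between DKO-severe and DKO-moderate, *Itgav* was higher and *Itga6* and *Selplg* were lower, 3 of 10 members against 20.1% of all genes tested (9.41% higher and 10.7% lower). Here 2 members did not overlap, *Itgav* and *Selplg*, against 21.3% of all genes tested. With the neutrophil and B cell terms 198 of 16035 genes were called in place of 3217, and none of the 3 members was. Their log2 fold changes were then 0.91 for *Itgav* (adjusted p = 0.0592), -0.77 for *Itga6* (adjusted p = 0.488), and -0.57 for *Selplg* (adjusted p = 0.294), beside 0.74, -1.10, and -0.84 without the terms. The median log2 fold change of the members was 0.08 for DKO-moderate against WT and 0.18 for DKO-severe against DKO-moderate, beside 0.00 and -0.03 over all genes tested. The comparisons with WT share their control libraries, so their results are not independent of each other.

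**Figure D1:**
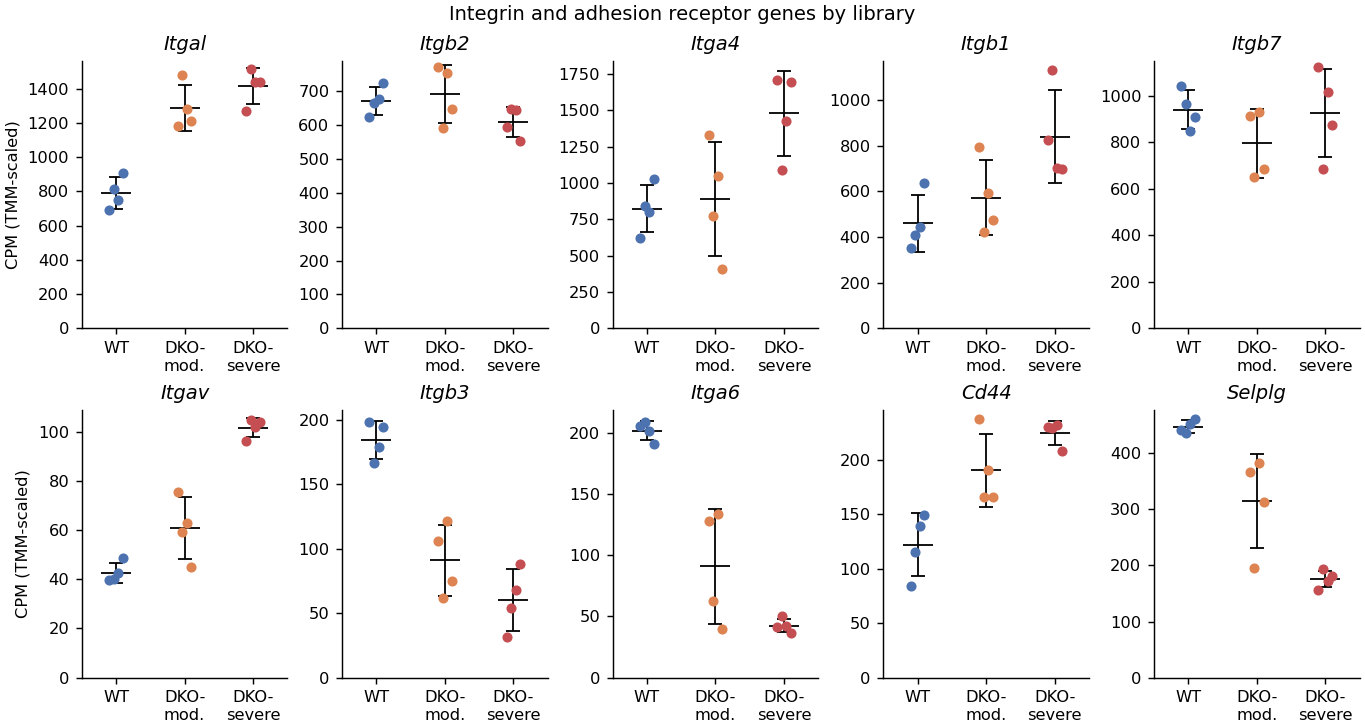
Level of each gene in CPM (TMM-scaled, linear axes from 0) in the 4 libraries of WT, DKO-moderate, and DKO-severe, with each point a library and the bar and whiskers the mean ± SD. *Itgav* sits at 96.5 to 105 CPM in DKO-severe, above every other library, while *Itga6* falls from 191 to 209.6 CPM in WT to 36.7 to 50.3 CPM in DKO-severe.

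*Itgal*, the α subunit of LFA-1, exceeded WT in both DKO groups, while its partner *Itgb2* showed no called change. *Itgal* was at 694, 814, 748, and 908 CPM in WT, 1181, 1481, 1278, and 1212 CPM in DKO-moderate, and 1267, 1516, 1438, and 1436 CPM in DKO-severe. All 8 DKO libraries were above all WT libraries, and both DKO groups overlapped each other. The mean was 1.79 times WT in DKO-severe (log2 fold change 0.84, SE 0.11, adjusted p = 6.01e-05) and 1.63 times WT in DKO-moderate (0.70, SE 0.11, adjusted p = 0.00119). The difference between the DKO groups was 0.13 (SE 0.11, adjusted p = 0.375). *Itgb2*, the β subunit that LFA-1 shares with the myeloid integrins, was at 621, 664, 675, and 721 CPM in WT, 769, 589, 753, and 647 CPM in DKO-moderate, and 593, 645, 643, and 551 CPM in DKO-severe. The 3 groups overlapped, and its log2 fold change was -0.14 in DKO-severe (SE 0.10, adjusted p = 0.249) and 0.04 in DKO-moderate (SE 0.10, adjusted p = 0.809). The sign of the value in DKO-severe turned to 0.04 when libraries were scaled by their size alone, a scaling that moved the median over all genes to 0.178.

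*Itga4*, the α4 subunit, and *Itgb1*, the β subunit it shares with many α subunits, were higher in DKO-severe, against WT, but with a wide spread between libraries. *Itga4* was at 624, 843, 803, and 1024 CPM in WT, 1332, 770.3, 1048, and 408 CPM in DKO-moderate, and 1709, 1089, 1424, and 1692 CPM in DKO-severe. No DKO-severe library fell to the level of WT, whereas DKO-moderate held both the lowest value of all, in DKO-moderate 4, and a value in the range of DKO-severe. *Itga4* rose by 0.84 in DKO-severe (log2, SE 0.29, adjusted p = 0.0297), and this call was lost without WT 1 (adjusted p = 0.0826), WT 2 (0.0585), WT 3 (0.0562), DKO-severe 1 (0.0696), or DKO-severe 4 (0.0583). In DKO-moderate its log2 fold change was 0.11 (SE 0.29, adjusted p = 0.824). The gene overlaps *Cerkl* on the opposite strand, and the reads had been counted by strand.

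*Itgb1* was at 351, 411, 443, and 637 CPM in WT, 794, 424, 593, and 475 CPM in DKO-moderate, and 827, 1131, 703, and 699 CPM in DKO-severe. DKO-severe lay above WT in all libraries, with DKO-severe 2 the highest, and DKO-moderate overlapped both other groups. It rose by 0.87 in DKO-severe (log2, SE 0.23, adjusted p = 0.00843), while the log2 fold change in DKO-moderate was 0.31 (SE 0.23, adjusted p = 0.381). Without WT 3, DKO-severe 1, and DKO-severe 2 together, a set left out after their markers of other cells had been seen, the log2 fold change of *Itgb1* in DKO-severe was 0.59 (adjusted p = 0.129) and that of *Itga4* 0.91 (adjusted p = 0.0899), neither called, while the other 6 genes called in DKO-severe remained past the threshold in the same direction.

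*Itgb7*, the β subunit of the gut-homing integrin α4β7, was at 1043, 963, 848, and 908 CPM in WT, 914, 651, 931, and 685 CPM in DKO-moderate, and 1125, 687, 1017, and 876 CPM in DKO-severe. The 3 groups overlapped throughout. From WT it differed by -0.02 on the log2 scale in DKO-severe (SE 0.16, adjusted p = 0.918) and -0.24 in DKO-moderate (SE 0.16, adjusted p = 0.320). DKO-severe and DKO-moderate did not differ by a called amount in *Itga4* (0.73, SE 0.29, adjusted p = 0.0953), *Itgb1* (0.56, SE 0.23, adjusted p = 0.107), or *Itgb7* (0.22, SE 0.16, adjusted p = 0.339).

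*Itgav*, the αv subunit, rose in steps from WT to DKO-severe, while *Itgb3*, one of its β partners, fell. *Itgav* was at 39.8, 40.1, 42.5, and 48.7 CPM in WT, 75.8, 59.4, 63.2, and 45.0 CPM in DKO-moderate, and 96.5, 105, 102, and 104 CPM in DKO-severe. The DKO-severe libraries stood closely together above all others, and DKO-moderate 4 fell within the range of WT. The rise was 1.25 in DKO-severe (log2, SE 0.13, adjusted p = 1.95e-05) and 0.51 in DKO-moderate (SE 0.13, adjusted p = 0.0195). DKO-severe exceeded DKO-moderate by 0.74 (SE 0.13, adjusted p = 0.00501). The call in DKO-moderate was lost without WT 1 (adjusted p = 0.0629) or WT 2 (0.0617).

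*Itgb3* encodes β3, best known as the β subunit of the platelet fibrinogen receptor, which pairs with αv in other cells. It was at 198, 166, 179, and 194 CPM in WT, 106, 61.4, 121, and 75.0 CPM in DKO-moderate, and 31.4, 53.8, 67.6, and 88.4 CPM in DKO-severe. All DKO libraries were below all WT libraries, and both DKO groups overlapped. The 10 platelet markers were near 0, with a summed level of 0.345 to 0.604 CPM in WT, 0.473 to 1.27 CPM in DKO-moderate, and 0.455 to 1.43 CPM in DKO-severe, and *Gp1bb* had no reads in WT. *Itgb3* fell by 1.61 in DKO-severe (log2, SE 0.28, adjusted p = 0.000507) and fell by 1.02 in DKO-moderate (SE 0.27, adjusted p = 0.0243). The difference between the DKO groups was -0.59 (SE 0.27, adjusted p = 0.139). Within DKO-severe the lowest *Itgb3* was in DKO-severe 1 and DKO-severe 2, the libraries with the highest neutrophil markers, and without these libraries and WT 3 its difference from WT was -1.25 on the log2 scale (adjusted p = 0.00539). The call in DKO-moderate was lost without WT 1 (adjusted p = 0.0629), WT 4 (0.0536), DKO-moderate 2 (0.0721), or DKO-moderate 4 (0.0599).

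*Itga6*, the α subunit of the laminin receptors α6β1 and α6β4, fell furthest among the members in DKO-severe. It was at 206, 209.6, 202, and 191 CPM in WT, 128, 62.9, 134, and 39.8 CPM in DKO-moderate, and 41.5, 50.3, 41.9, and 36.7 CPM in DKO-severe. WT and DKO-severe each stood closely together, whereas DKO-moderate spread from below to above the middle of the gap between them, with DKO-moderate 4 inside the range of DKO-severe. *Itga6* fell by 2.25 in DKO-severe (log2, SE 0.31, adjusted p = 0.000112) and fell by 1.15 in DKO-moderate (SE 0.30, adjusted p = 0.0219). DKO-severe was lower than DKO-moderate by a log2 fold change of -1.10 (SE 0.30, adjusted p = 0.0250), although these groups overlapped. The last call was lost without DKO-moderate 1 (adjusted p = 0.0802), DKO-moderate 3 (0.0786), DKO-severe 1 (0.0613), DKO-severe 3 (0.0661), or DKO-severe 4 (0.0751), and the call in DKO-moderate without WT 1 (0.0539), WT 2 (0.0543), or DKO-moderate 2 (0.0677).

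In DKO-moderate the libraries with less *Itga6* were those with lower naive T cell markers. DKO-moderate 2 and DKO-moderate 4, with 62.9 and 39.8 CPM of *Itga6*, had summed naive T cell markers of 2521 and 2485 CPM, against 3734 and 3960.2 CPM in DKO-moderate 1 and DKO-moderate 3, where *Itga6* was at 128 and 134 CPM. The same pair of libraries was also lower in *Itgb3*, *Selplg*, *Itgb2*, *Itga4*, *Itgb1*, *Itgb7*, *Itgav*, and *Cd44*. This order was thus shared by genes that rose against WT, such as *Cd44* (166 and 166 CPM against 238 and 191 CPM). *Itgal* alone among the members did not share it. The share of all genes with this order was not counted. Over the whole table, DKO-moderate 1 and DKO-moderate 3 were the most alike of the DKO-moderate libraries. Their chi-square per degree of freedom was 27.9, against 92.1 to 151 for the other pairs. The part of the naive T cell share in the levels of the members was not tested.

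*Cd44* rose and *Selplg* fell in DKO-severe. *Cd44*, the receptor for hyaluronan, was at 84.5, 115, 139.7, and 149 CPM in WT, 238, 166, 191, and 166 CPM in DKO-moderate, and 229.9, 229.6, 232, and 208 CPM in DKO-severe. Every DKO library exceeded every WT library, with the DKO groups overlapping. The rise was 0.88 in DKO-severe (log2, SE 0.17, adjusted p = 0.000886) and 0.64 in DKO-moderate (SE 0.16, adjusted p = 0.0195), and the DKO groups differed by 0.24 (SE 0.16, adjusted p = 0.309). Without WT 2 the adjusted p in DKO-moderate was 0.0598. These counts sum all splice forms of the gene.

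*Selplg*, the gene of PSGL-1, was at 441, 436, 452, and 462 CPM in WT, 367, 196, 383, and 314 CPM in DKO-moderate, and 157, 193, 173, and 180.4 CPM in DKO-severe. The groups were ordered without overlap from WT to DKO-severe, with DKO-moderate 2 close to the top of DKO-severe. *Selplg* fell by 1.35 in DKO-severe (log2, SE 0.17, adjusted p = 5.35e-05), and DKO-severe was lower than DKO-moderate by a log2 fold change of -0.84 (SE 0.17, adjusted p = 0.00692). Against WT, DKO-moderate gave -0.51 on the log2 scale (SE 0.16, adjusted p = 0.0529), which did not pass the threshold. It passed in edgeR with DESeq2 size factors (adjusted p = 0.0439) or filterByExpr (0.0445), with limma voom (0.0487), with DESeq2 itself (0.0120), and without DKO-moderate 1 (adjusted p = 0.0418), DKO-moderate 2 (0.0368), DKO-moderate 3 (0.0291), or DKO-severe 2 (0.0477).

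**Figure D2:**
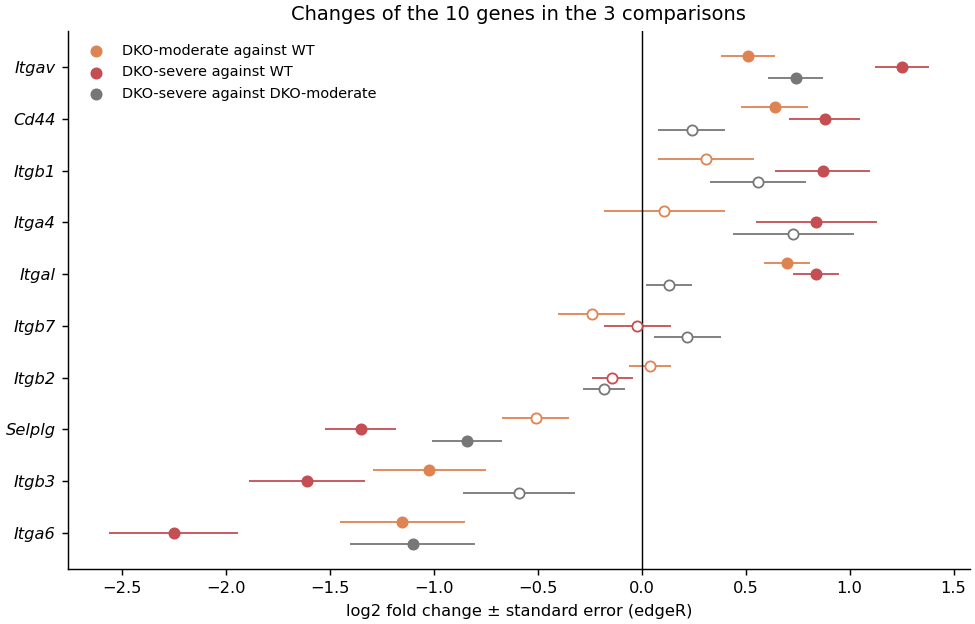
Log2 fold change ± SE (edgeR) of the 10 genes in the 3 comparisons, ordered by the change in DKO-severe against WT, with filled points past an adjusted p of 0.05 and open points not. *Itgb2* and *Itgb7* are open in all 3 comparisons, and *Itga6* has the lowest value, -2.25, in DKO-severe against WT.

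Compared per kilobase of exon, the order of the members changed between groups. In WT, *Itgb7* was first at 339.5 ± 29.9 CPM per kb (SD, n = 4), followed by *Itgb2* at 219.7 ± 13.5, *Itgal* at 120.4 ± 14.0, *Itgb1* at 113 ± 30.3, and *Selplg* at 105 ± 2.71 CPM per kb. *Itgal*, *Itgb1*, and *Selplg* overlapped their neighbours in this order. *Itga4* (58.9 ± 11.7 CPM per kb), *Itgb3* (31.2 ± 2.46), *Itga6* (22.4 ± 0.913), *Cd44* (18.0 ± 4.26), and *Itgav* (3.98 ± 0.384) followed, of which only *Itga6* and *Cd44* overlapped. In DKO-severe, *Itgb7* remained first at 334 ± 68.3 CPM per kb, and *Itgal* (215 ± 16.0), *Itgb1* (206 ± 49.6), and *Itgb2* (199 ± 14.8) followed as overlapping neighbours. *Selplg* stood behind *Itga4* there, at 41.2 ± 3.45 against 106 ± 20.8 CPM per kb, and ahead of *Cd44* at 33.2 ± 1.67. *Itgb3* (10.2 ± 4.06) and *Itgav* (9.47 ± 0.347) overlapped, and *Itga6* was last at 4.72 ± 0.624 CPM per kb. In DKO-moderate the order lay between, with *Itgb7* (287 ± 53.3), *Itgb2* (226 ± 28.2), *Itgal* (196 ± 20.5), and *Itgb1* (140.0 ± 40.3 CPM per kb) each overlapping the next. *Selplg* (73.7 ± 19.8), *Itga4* (63.6 ± 28.2), and *Cd44* (28.1 ± 5.02) then each overlapped the next, and *Itgb3* (15.4 ± 4.64), *Itga6* (10.1 ± 5.23), and *Itgav* (5.66 ± 1.18 CPM per kb) formed an overlapping row at the end.

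Ratios between genes within a library do not depend on the scaling between libraries. The pairs were partner subunits, except *Itgb1* with *Itgb7* and *Cd44* with *Selplg*. Of 21 comparisons of such ratios (7 ratios in 3 comparisons), 12 had groups that did not overlap and so reached 0.0286, the smallest p that an exact two-sided permutation test of 4 libraries against 4 allows. Adjusted over the 21 this was 0.05, which is at the threshold and not under it. Ratios of other gene pairs were not computed for comparison. Of single genes tested, 51.9% did not overlap in DKO-severe against WT, 24.8% in DKO-moderate against WT, and 21.3% between the DKO groups. The reads of *Itgal* for each read of *Itgb2* were 1.11 to 1.26 in WT, 1.54 to 2.51 in DKO-moderate, and 2.14 to 2.61 in DKO-severe, a difference in the mean log2 ratio from WT of 0.98 (SE 0.08) in DKO-severe and 0.67 (SE 0.16) in DKO-moderate. Neither DKO group overlapped WT in this ratio.

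The ratio of *Itga4* to *Itgb7* separated DKO-severe from WT without overlap, and that of *Itga4* to *Itgb1* did not. The reads of *Itga4* for each read of *Itgb1* were 1.61 to 2.05 in WT and 0.963 to 2.42 in DKO-severe, with a log2 difference of -0.03 (SE 0.31, exact permutation p = 0.971). DKO-moderate 4 (0.858) and DKO-severe 2 (0.963) were the only libraries with fewer reads of *Itga4* than of *Itgb1*. *Itga4* for each *Itgb7* rose from 0.598 to 1.13 in WT to 1.40 to 1.93 in DKO-severe, without overlap (log2 difference 0.88, SE 0.22). The ratio of *Itgb1* to *Itgb7* overlapped between WT (0.337 to 0.702) and DKO-severe (0.691 to 1.64), with a log2 difference of 0.91 (SE 0.37, exact permutation p = 0.0571, adjusted p = 0.0857).

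The remaining pairs moved in opposite directions and separated all 3 groups. *Itgav* for each read of *Itgb3* was 0.201 to 0.251 in WT, 0.522 to 0.967 in DKO-moderate, and 1.17 to 3.07 in DKO-severe, so that *Itgav* exceeded *Itgb3* in reads in DKO-severe alone among the groups. Per kilobase the median ratio was 0.132, 0.362, and 0.949. *Itga6* for each read of *Itgb1* was 0.299 to 0.587, 0.0838 to 0.227, and 0.0445 to 0.0596. *Cd44* for each read of *Selplg* was 0.191 to 0.323, 0.500 to 0.846, and 1.15 to 1.46. The log2 differences from WT in DKO-severe were 2.96 (SE 0.31) for *Itgav* to *Itgb3*, -3.13 (SE 0.23) for *Itga6* to *Itgb1*, and 2.26 (SE 0.19) for *Cd44* to *Selplg*.

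**Figure D3:**
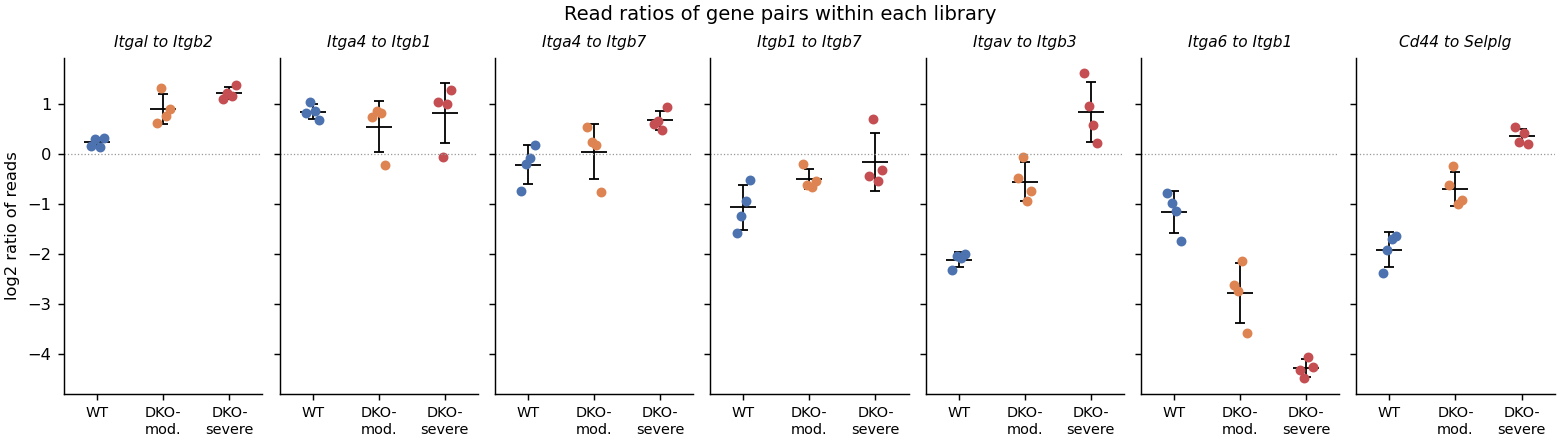
Log2 of the ratio of reads between 7 pairs of genes within each library (points), with mean ± SD per group, where 0 (dotted) means equal reads. *Itgav* to *Itgb3*, *Itga6* to *Itgb1*, and *Cd44* to *Selplg* separate the 3 groups without overlap, whereas *Itga4* to *Itgb1* overlaps among all 3 groups.

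Among the other integrin subunits, the αv partner *Itgb8* was the one gene that rose in both DKO groups. Of 18 in the list 16 were tested, of which 5 rose and 2 fell in DKO-severe, 1 rose in DKO-moderate, and 3 were higher and 1 lower in the DKO-severe than in the DKO-moderate libraries, with a median log2 fold change in DKO-severe of 1.18 over the list. The 7 called in DKO-severe were 43.8% of those tested, below the 52.6% of all genes, and the count was 10 without WT 3, 11 with limma voom, and 4, none of them lower, with the neutrophil and B cell terms. Over the whole table these settings called 8370 of 15959, 9760 of 16035, and 3000 of 16035 genes, the last for every list below too. In DKO-moderate 6.25% of the list was called, beside 17.1% of all genes, and between the DKO groups 25.0%, beside 20.1%. *Itgb8*, an αv partner that binds latent TGF-β, was at 0.575, 1.26, 1.72, and 3.74 CPM in WT, 12.2, 23.0, 12.3, and 7.60 CPM in DKO-moderate, and 23.8, 32.3, 29.9, and 23.9 CPM in DKO-severe. All DKO libraries were above WT for this gene, which rose by 3.90 in DKO-severe (log2, SE 0.50, adjusted p = 6.06e-05) and by 2.91 in DKO-moderate (SE 0.48, adjusted p = 0.00186). Without WT 4 these values were 4.53 and 3.53. *Itgb5*, another αv partner, rose by 2.34 in DKO-severe (SE 0.73, adjusted p = 0.0173), from 1.51 ± 1.62 CPM in WT to 7.68 ± 1.97 CPM (SD, n = 4), with 3.77 CPM in WT 3. Its log2 fold change was 3.33 without WT 3, and 2.47 and not called with the neutrophil and B cell terms (adjusted p = 0.102).

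*Itga3*, a laminin receptor subunit, rose by 2.04 in DKO-severe (SE 0.31, adjusted p = 0.000189), from 4.77 ± 0.984 to 19.6 ± 6.93 CPM. *Itgam*, the αM subunit that pairs with β2 on myeloid cells, was at 4.54 to 12.5 CPM in WT, 5.11 to 11.5 CPM in DKO-moderate, and 135, 59.2, 86.2, and 30.5 CPM in DKO-severe 1 to 4, where it rose by 3.50 against WT (SE 0.50, adjusted p = 0.000128). The summed neutrophil markers of the DKO-severe libraries were 2317, 868, 45.9, and 28.3 CPM and their monocyte and macrophage markers 384, 389.5, 126, and 103 CPM. With the neutrophil and B cell terms the log2 fold change of *Itgam* against WT was 2.40, still called (adjusted p = 0.0186).

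Genes that activate integrins or link them to the cytoskeleton changed in both directions. Of 29 listed, 26 were tested, with 8 higher and 11 lower in DKO-severe than in WT, 7 higher and 2 lower in DKO-moderate than in WT, and 3 higher and 9 lower between the DKO groups (DKO-severe against DKO-moderate). The 19 called in DKO-severe were 73.1% of those tested, beside 52.6% of all genes, and with the neutrophil and B cell terms 4 were higher and 2 lower. In DKO-moderate 34.6% of the list was called, beside 17.1% of all genes, and between the DKO groups 46.2%, beside 20.1%. The median log2 fold change of the list was -0.06 in DKO-severe and 0.06 in DKO-moderate. *Rasgrp1*, an exchange factor for Ras downstream of the T cell receptor, was at 569 to 671 CPM in WT, 279 to 458 CPM in DKO-moderate, and 115 to 238 CPM in DKO-severe. It separated all 3 groups, and it fell by 1.76 in DKO-severe (log2, SE 0.22, adjusted p = 5.81e-05) and fell by 0.75 in DKO-moderate (SE 0.22, adjusted p = 0.0329). With the neutrophil and B cell terms the value in DKO-severe was -1.16 (adjusted p = 0.0527), and the call in DKO-moderate was lost without WT 1 (adjusted p = 0.0714), WT 2 (0.0821), WT 4 (0.0683), DKO-moderate 2 (0.0958), or DKO-moderate 4 (0.0747). *Rasgrp2*, the exchange factor that loads Rap1, fell by 1.87 in DKO-severe (SE 0.25, adjusted p = 8.95e-05), from 308 ± 33.1 to 84.4 ± 21.3 CPM.

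*Vcl*, which encodes the actin linker vinculin, was at 4.05 to 5.86 CPM in WT, 7.58 to 16.6 CPM in DKO-moderate, and 29.1 to 67.0 CPM in DKO-severe, without overlap, and rose by 3.42 in DKO-severe (SE 0.30, adjusted p = 8.28e-06) and 1.17 in DKO-moderate (SE 0.28, adjusted p = 0.0155, or 0.0528 without WT 1). *Skap2*, an adaptor of integrin signalling, exceeded WT by 0.65 in DKO-moderate (SE 0.15, adjusted p = 0.0134) and exceeded DKO-moderate by 1.03 in DKO-severe (SE 0.15, adjusted p = 0.00344). The latter value was 0.74 and not called with the neutrophil and B cell terms (adjusted p = 0.111). *Ptk2*, focal adhesion kinase, fell by 1.33 in DKO-moderate (SE 0.34, adjusted p = 0.0192), from 14.5 ± 1.44 to 5.77 ± 2.15 CPM, a call lost without WT 1 (adjusted p = 0.0546) or DKO-moderate 2 (0.0563). *Tln2*, the less abundant talin gene, was near 0 in WT, at 0.0287 to 0.164 CPM. It rose by 6.04 on the log2 scale in DKO-severe (SE 1.19, adjusted p = 0.00126), where DKO-severe 1 was at 19.0 CPM and the others at 1.86 to 2.39 CPM. Leaving out DKO-severe 1 gave 4.48 (adjusted p = 0.00230), and with the neutrophil and B cell terms 2.49 and not called (adjusted p = 0.176). *Tln1*, the main talin of leukocytes, was at 892 ± 104 CPM in WT (SD, n = 4) and 862 ± 24.2 CPM in DKO-severe, with a log2 fold change of -0.05 (SE 0.12, adjusted p = 0.742).

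Genes for ligands were read as transcripts in the sorted cells, not as the ligands these cells meet. Of 17 listed, 15 were tested, with 7 higher and 2 lower in DKO-severe than in WT, 2 higher and 1 lower in DKO-moderate than in WT, and 3 higher and 2 lower between the DKO groups. The 9 called in DKO-severe were 60.0% of those tested, beside 52.6% of all genes, and 5 were called with the neutrophil and B cell terms. The list's median was 0.96 in DKO-severe and 0.22 in DKO-moderate. *Spp1*, osteopontin, a ligand of αv integrins and CD44, was at 0.431, 0.839, 1.93, and 3.96 CPM in WT, 99.7, 32.3, 68.0, and 13.5 CPM in DKO-moderate, and 195, 119, 75.8, and 208 CPM in DKO-severe. It exceeded WT in all DKO libraries and rose by 6.36 in DKO-severe (log2, SE 0.78, adjusted p = 4.80e-05) and by 4.88 in DKO-moderate (SE 0.74, adjusted p = 0.00120), or by 7.12 and 5.64 without WT 4. *Lamc1*, a laminin chain, rose by 4.02 (SE 0.25, adjusted p = 3.10e-06) and 2.30 (SE 0.23, adjusted p = 0.000151), from 3.69 ± 1.32 CPM in WT to 59.9 ± 8.22 CPM in DKO-severe.

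*Fn1*, fibronectin, was at 0 to 0.0820 CPM in 3 WT libraries and 14.0 CPM in WT 3, the WT library with the highest macrophage markers, and at 34.9 to 69.2 CPM in DKO-severe (log2 fold change 3.80, SE 1.36, adjusted p = 0.0329). WT 3 set the size of this value, which was 10.18 without it, and the call was lost without WT 1 (adjusted p = 0.0561), WT 2 (0.0630), WT 4 (0.0623), or DKO-severe 1 (0.0658), and with the platelet term (0.0861). *Icam2*, a ligand of LFA-1, was at 70.7 ± 5.49 CPM in WT, 56.4 ± 5.74 CPM in DKO-moderate, and 36.7 ± 3.33 CPM in DKO-severe, and differed between DKO-severe and DKO-moderate by a log2 fold change of -0.62 (SE 0.10, adjusted p = 0.00354). With the neutrophil and B cell terms this difference was -0.66 and not called (adjusted p = 0.0751).

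Among the enzymes that make PSGL-1 able to bind selectins, *Gcnt1* and, at low levels, *Fut7* rose in both DKO groups. *Fut7* had a mean of 2.07 CPM in WT and 3.60 CPM in DKO-moderate (log2 fold change 0.80, adjusted p = 0.0394). In DKO-severe its mean was 4.39 CPM (1.08, adjusted p = 0.00262). *Fut4* rose in DKO-severe, from a mean of 0.282 to 3.67 CPM (3.68, adjusted p = 0.00308). All 12 listed were tested, with 5 higher and 2 lower in DKO-severe than in WT, 2 higher in DKO-moderate than in WT, and 2 in each direction between the DKO groups, and the list's median in DKO-severe was 0.09. The 7 called in DKO-severe were 58.3% of those tested, beside 52.6% of all genes, and 1 was higher and 1 lower with the neutrophil and B cell terms. In DKO-moderate 16.7% of the list was called, beside 17.1% of all genes, and between the DKO groups 33.3%, beside 20.1%. *Gcnt1*, the core 2 branching enzyme of O-glycans, rose from 4.11 to 6.53 CPM in WT to 23.9 to 40.4 CPM in DKO-moderate (log2 fold change 2.45, SE 0.24, adjusted p = 0.000137) and 35.0 to 61.6 CPM in DKO-severe (3.16, SE 0.25, adjusted p = 4.93e-06). *St3gal1*, a sialyltransferase that competes with *Gcnt1* for the same core 1 glycan, rose in DKO-severe by 0.95 (SE 0.20, adjusted p = 0.00190), from 188 ± 17.9 to 362 ± 63.2 CPM, and by 0.80 with the neutrophil and B cell terms, where it was not called (adjusted p = 0.136). *B4galt1*, a galactosyltransferase, fell by 1.09 (SE 0.14, adjusted p = 5.83e-05), from 239.6 ± 12.2 to 113 ± 7.05 CPM.

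In DKO-severe the 3 genes whose proteins anchor CD44 and PSGL-1 to actin fell, and 3 of 4 genes for proteases that cut adhesion receptors rose. The list joins the ERM proteins ezrin, radixin, and moesin with proteases, and all 7 genes were tested, with 3 higher and 3 lower in DKO-severe than in WT, 1 higher and 1 lower in DKO-moderate than in WT, and 2 higher and 1 lower between the DKO groups. The 6 called in DKO-severe were 85.7% of those tested, beside 52.6% of all genes. With the neutrophil and B cell terms 2 were higher and none lower, and with DESeq2 (8480 of 15945 genes called) 3 were higher and 2 lower. In DKO-moderate 28.6% of the list was called, beside 17.1% of all genes, and between the DKO groups 42.9%, beside 20.1%. The 3 that fell in DKO-severe were *Ezr*, *Rdx*, and *Msn*, the last by 0.36 on the log2 scale (adjusted p = 0.0315). *Ezr* was at 499 to 563 CPM in WT, 307 to 463 CPM in DKO-moderate, and 292 to 342 CPM in DKO-severe, and fell by 0.72 in DKO-severe (SE 0.12, adjusted p = 0.000397) and fell by 0.51 in DKO-moderate (SE 0.12, adjusted p = 0.0137). *Rdx* fell by 1.07 in DKO-severe (SE 0.23, adjusted p = 0.00239), from 184 ± 5.71 to 87.4 ± 34.4 CPM. With the neutrophil and B cell terms *Ezr* was at -0.53 (adjusted p = 0.111) and *Rdx* at -1.13 (adjusted p = 0.102). The 3 that rose were *Adam8*, *Mmp14*, and *Adam10*. *Adam8*, a metalloprotease also abundant in granulocytes, was at 2.79 to 4.55 CPM in WT, 5.36 to 9.56 CPM in DKO-moderate, and 54.4, 15.0, 66.9, and 36.9 CPM in DKO-severe 1 to 4 (log2 fold change 3.57, SE 0.40, adjusted p = 3.00e-05). *Mmp14* reached 32.3 CPM in DKO-severe 1 and 2.92 to 12.2 CPM in the other DKO-severe libraries, from 1.29 to 2.65 CPM in WT (2.93, SE 0.65, adjusted p = 0.00256), with a log2 fold change of 2.14 without DKO-severe 1, and of 1.60 and not called with the neutrophil and B cell terms (adjusted p = 0.259). *Adam10*, a protease that cuts CD44, rose by 0.60 in DKO-severe (adjusted p = 0.000597).

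**Figure D4:**
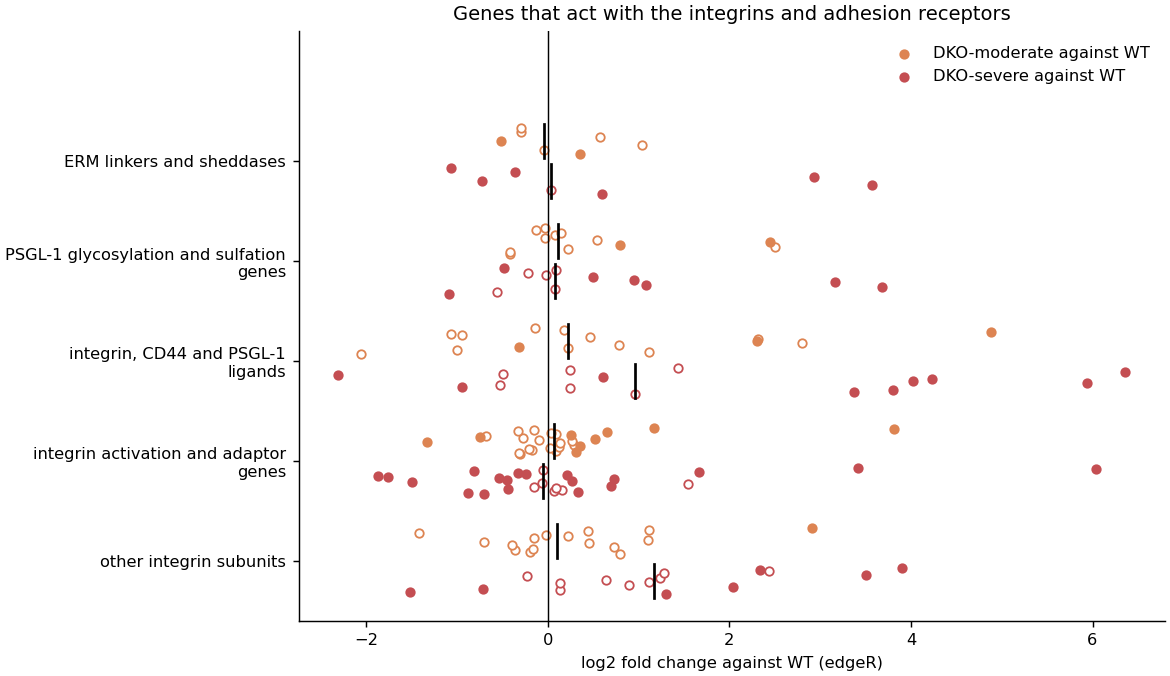
Log2 fold change against WT (edgeR) of every tested gene in 5 lists of genes that act with the members, for DKO-moderate and DKO-severe, with filled points past an adjusted p of 0.05, open points not, and a black bar at each list's median. In DKO-severe the median is 1.18 for other integrin subunits and -0.06 for activation and adaptor genes, where genes lie on both sides of 0.

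The genes most like a member from library to library were sought for the members that changed by at least 1 on the log2 scale in DKO-severe, after the group means had been removed, over 12 libraries and 9996 genes. For *Itga6* these were *Usp25* (Pearson r = 0.989, Spearman rho = 0.902) and *Usp7* (r = 0.981, rho = 0.958). For *Itgb3* they were *Daam1* (r = 0.951, rho = 0.958) and *Ttc7b* (r = 0.947, rho = 0.902). For *Selplg* they were *Fam69a* (r = 0.961, rho = 0.755) and *Samhd1* (r = 0.959, rho = 0.797), and for *Itgav* *Casp2* (r = 0.949, rho = 0.804) and *Slc30a7* (r = 0.947, rho = 0.671). These values describe the libraries, which share their depth, scaling, and cell makeup, and the highest of many correlations is high by its selection.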

How the data were processed

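Raw counts per gene were deposited by the authors for 12 libraries, 4 per group, made with a directional kit. Per the study's methods and the submitters' processing notes, reads were aligned to mm10 with STAR 2.7.11 and counted by strand with HTSeq, without normalization. The annotation is not given in the sources used here. Rows that name no gene (18.53% to 23.73% of records) were left out. Libraries of the same group differed by more than sampling noise (lowest chi-square per degree of freedom 22.9).

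Genes with at least 10 reads summed over a condition's libraries in at least 1 condition were tested, which left 16035 of 26608. After TMM scaling, 1 model of all 3 groups was fitted with edgeR 4.0.16 in R 4.3.3 (quasi-likelihood F test), p-values were adjusted by Benjamini-Hochberg over every gene tested, and 0.05 was the threshold. The SE is the size of the log2 fold change divided by the square root of F. Exact tests and tables were made in Python 3.11.15 with scipy 1.17.1. Exon lengths come from GENCODE M21 on GRCm38, the build of mm10, and promoter windows from RefSeq. The fit was tested on simulated counts.

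The members, lists, and tests were chosen with earlier results of these data known. Named genes were taken from the 10 members, up to 4 genes per list and comparison past the threshold with the largest change (at 5 CPM or more on average in the higher group), and the 2 genes most like each member that changed by at least 1. *Tln1*, *Msn*, *Fut4*, *Fut7*, and the DKO-severe value of *Adam10* were added after their values were seen. A gene of the ligand list that met the rule is not reported here. Markers of other cells also gave a summed level over the 3 groups of 73.9 to 307 CPM (plasma cell), 47.8 to 454 CPM (NK cell), 1.03 to 26.7 CPM (CD8 T cell), 0.323 to 35.7 CPM (erythroid), and 0.558 to 1.64 CPM (endothelial). Alternatives were DESeq2 1.42.0, limma 3.58.1 voom with quality weights, DESeq2 size factors, library size alone, no filter, filterByExpr, a block of replicate numbers, a fit of only the pair compared, terms for Y-linked, neutrophil and B cell, or platelet genes, stricter thresholds, 1 added count in ratios, and leaving out each library.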

Additional observations from a re-analysis of the deposited data

Results flagged for a closer look

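Among 51 groups of 4 libraries examined for a library far from the others of its group by Dixon's test, 3 had one, about the number that chance alone gives at a rate of 5%. *Cd44* in DKO-severe 4 was at 208 CPM, below the 229.6 to 232 CPM of the other DKO-severe libraries. The log2 ratio of *Itga4* to *Itgb1* reads was -0.22 in DKO-moderate 4 and 0.75 to 0.86 in the other DKO-moderate libraries. The log2 ratio of *Itgb1* to *Itgb7* was 0.72 in DKO-severe 2 and -0.53 to -0.33 in the other DKO-severe libraries.

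The change against WT differed between DKO-severe and DKO-moderate in 3 of 10 members by edgeR's test, against 20.1% of all genes tested. This is the comparison of DKO-severe with DKO-moderate already given, not a further test. All 3 calls were lost with the neutrophil and B cell terms, and that of *Itga6* in 9 of 24 alternatives. The difference was 0.74 for *Itgav* (adjusted p = 0.00501), -1.10 for *Itga6* (adjusted p = 0.0250), and -0.84 for *Selplg* (adjusted p = 0.00692), each on the log2 scale.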

How the results depend on the processing

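The count of members past the threshold was 8 in DKO-severe against WT, 5 in DKO-moderate against WT, and 3 in DKO-severe against DKO-moderate. With terms for neutrophil and B cell genes the first became 4 and the last 0, while the genes called over the whole table went from 8428 to 3000 and from 3217 to 198, and *Itgb3* in DKO-severe against WT was then at -0.40 (adjusted p = 0.237) and against DKO-moderate at 0.40 (adjusted p = 0.309). With a term for platelet genes the count for DKO-moderate was 2, with 1917 of 16035 genes called over the whole table. DESeq2 and limma voom each gave 5 between the DKO groups, where they called 4169 of 15945 and 6126 of 16035 genes. A change of at least 1 on the log2 scale left 4, 2, and 1, and an adjusted p under 0.01 left 1 in DKO-moderate. The shares over all genes at these stricter thresholds are not given here. Leaving out each library in turn gave 7 to 8, 2 to 6, and 2 to 3 members, with 2 in DKO-moderate without WT 1 or WT 2. Over the whole table these fits called 7253 to 9006, 1616 to 2920, and 1646 to 3670 genes. In DKO-moderate 1616 of 15964 were called without WT 1 and 1707 of 15953 without WT 2, beside 2734 of 16035. Without WT 3, DKO-severe 1, and DKO-severe 2 together, added after seeing the data, the counts were 6, 3, and 2, with *Itgav* (adjusted p = 0.0608) and *Itga6* (adjusted p = 0.0535) lost in DKO-moderate. Over the whole table this fit called 6679, 2562, and 2055 of 15497 genes. The cause was not tested in any of these cases.

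Residual correlations between libraries of the same replicate number ran from -0.272 to 0.208, and between those of different numbers from -0.318 to 0.303. No pairing by number was seen, though 12 such correlations cannot exclude it. With the replicate block, 7, 4, and 3 members passed, without *Itga4* in DKO-severe (adjusted p = 0.0622) and *Itgav* in DKO-moderate (adjusted p = 0.0540), and over all genes 7794, 2201, and 2321. No member called in the main results changed direction under any alternative run. No ratio between genes moved with 1 count added. Exact tests of 4 against 4 cannot go below 0.0286, nor, adjusted over 21, below 0.05 here.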
